A study of Homo sapiens with 6 samples.

Results

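The 9 enzymes described here make or carry forward the sugar phosphates of the pentose phosphate pathway or supply the cytosol with NADPH from another source. They were chosen by gene symbol: *H6PD*, *PGLS* and *PGD* of the oxidative branch, *RPIA*, *RPE*, *TKT* and *TALDO1* of the non-oxidative branch, and *ME1* and *IDH1*, which reduce NADP outside the pathway. All 9 were among the 25992 genes of the count table, and all 9 were among the 12944 genes with enough counts to be tested. The rule names symbols and no measured value. The list was drawn up with earlier results of these data known, so it was not independent of them.

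RNA was sequenced from 6 cultures of 786-O, an established clear cell renal carcinoma line labelled wild type, whose tumour suppressor VHL is known to be inactive. Copper replicates 1, 2 and 3 were cultures kept in chronic copper, labelled 30, 31 and 32 uM, against 30 uM in the series' design text, and they were handled as 1 group. The copper was given as copper sulfate bound beforehand to serum proteins, and the 3 control cultures received serum handled alike with none added. All 6 cultures thus shared a single cell line, and the labels do not say whether the copper cultures were adapted separately, so p-values measure the spread between these cultures, which may be technical.

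The pathway has a pair of branches that serve different needs. The oxidative branch takes glucose phosphate to ribulose phosphate and yields NADPH, the reductant that keeps glutathione and thioredoxin reduced and feeds the synthesis of lipids. The non-oxidative branch turns ribulose phosphate into ribose phosphate for nucleotides, or through transketolase and transaldolase back into intermediates of glycolysis. Several of these enzymes, among them *PGD*, *TKT*, *TALDO1* and *ME1*, are known targets of the oxidative stress factor NRF2 in other cells.

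The libraries held from 16301772 to 25079913 counts, and levels are given as CPM, a gene's counts relative to those of its library after TMM scaling between libraries. Replicate 3 of both groups stood apart from replicates 1 and 2 on the first principal component, at 41.2 in copper and 17.6 in control against -17.6 to -11.7. The cause of that was not tested, and values are therefore given for each replicate. The 9 renal carcinoma markers all had counts in every library, with *PAX8* at 123 to 147 CPM and *CA12* at 545 to 835 CPM. The 4 leukocyte markers summed to at most 0.486 CPM and the 3 endothelial markers to at most 0.244 CPM in any library. The 3 fibroblast and muscle markers summed to 3.84 to 5.55 CPM in copper and 5.31 to 6.96 CPM in control, nearly all of it *PDGFRB*, and *HBB* had 0 counts in all libraries. In bulk RNA, a change in the number of cells of a kind and in RNA per cell cannot be told apart.

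The promoters of *PGD*, *TALDO1* and *ME1* are shown because these 3 genes had the largest log2 fold changes among the 9. Each is the 250 bases before the RefSeq gene start on GRCh38.p14, 5′ to 3′ on the gene's strand. They lie at chr1:10398814-10399063 on the plus strand, chr11:747214-747463 on the plus strand and chr6:83431052-83431301 on the minus strand. Capitals mark a match to TGACNNNGC, the core of the antioxidant response element that NRF2 is known to bind, on either strand.
PGD: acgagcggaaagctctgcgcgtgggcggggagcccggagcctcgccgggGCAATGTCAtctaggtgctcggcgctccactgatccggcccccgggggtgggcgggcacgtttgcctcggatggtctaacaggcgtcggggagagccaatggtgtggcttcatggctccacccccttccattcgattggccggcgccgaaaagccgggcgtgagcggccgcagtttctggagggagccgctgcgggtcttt
TALDO1: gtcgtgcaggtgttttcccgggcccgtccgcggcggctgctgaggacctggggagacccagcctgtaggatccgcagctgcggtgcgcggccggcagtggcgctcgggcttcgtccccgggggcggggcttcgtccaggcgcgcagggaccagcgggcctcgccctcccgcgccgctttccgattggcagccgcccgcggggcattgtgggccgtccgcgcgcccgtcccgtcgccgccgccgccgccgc
ME1: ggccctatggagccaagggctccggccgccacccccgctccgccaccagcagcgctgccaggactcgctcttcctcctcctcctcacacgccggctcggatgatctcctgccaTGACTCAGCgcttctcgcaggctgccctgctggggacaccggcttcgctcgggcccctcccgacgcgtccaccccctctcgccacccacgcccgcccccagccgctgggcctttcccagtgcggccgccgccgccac
The match of *PGD* lies on the reverse strand, reads TGACATTGC there and begins 201 bases before the start. The match of *ME1*, TGACTCAGC, begins 137 bases before the start and overlaps a second motif, TGANTCA, which AP-1 factors bind. *ME1* also had a match 11 bases past the start, on the reverse strand and outside the bases shown. *TALDO1* had no match in this window.

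Across the 10 promoters of the 9 genes (*IDH1* has a pair), windows of 300 bases that run 50 bases past the start held the TGACNNNGC motif in 4. Besides *PGD* and *ME1* these were *RPE* and the more upstream promoter of *IDH1*. The window of *H6PD* lies at its start in the count table, 9239847. The RefSeq gene start of *H6PD* is further upstream, and the bases there were not searched. Among all 35116 RefSeq promoters of that length, 13.3% held the motif and 7.71% held TGANTCA. A match describes the letters in the window and is neither a site nor a cause.

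**Figure D1:**
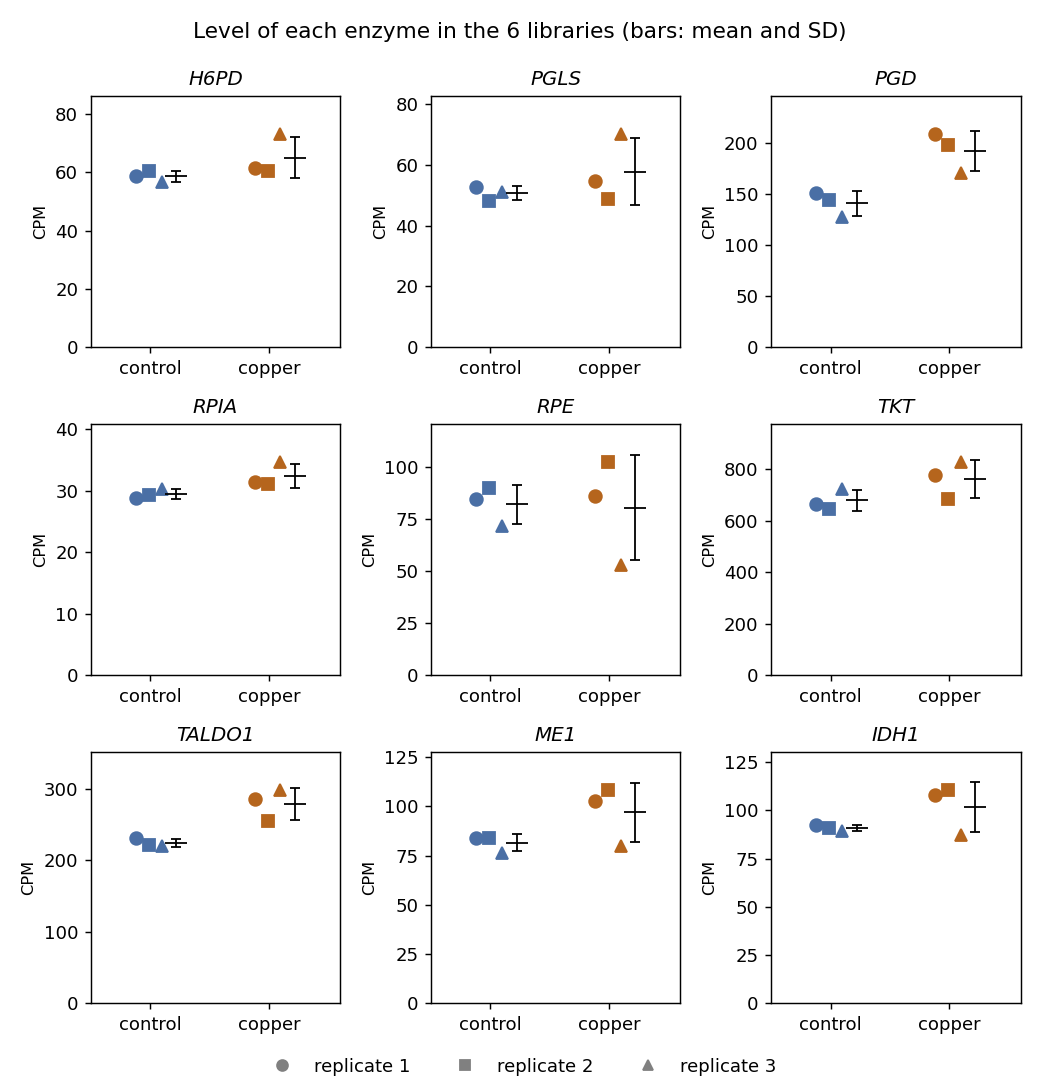
CPM of each of the 9 enzymes in the 6 libraries, with the marker shape giving the replicate number and the black bar the mean and SD of 3 libraries; each vertical axis starts at 0. The copper and control points do not overlap for PGD, RPIA and TALDO1, and copper replicate 3 is the lowest copper point for PGD, RPE, ME1 and IDH1 and the highest for H6PD, PGLS, RPIA, TKT and TALDO1.

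Copper was compared with control to see whether long exposure was accompanied by a change in these enzymes. In edgeR's quasi-likelihood test, 0 of the 9 passed an adjusted p of 0.05, as did 0 of all 12944 genes (0%), and the adjusted p was 1.00 for each of the 9. Before adjustment 455 genes (3.52%) had a p under 0.05. Of these, 249 were higher in copper (1.92%), and *PGD* and *TALDO1* were 2 of them. DESeq2 called 27 genes (0.209%) and 0 of the 9. With the replicate number added as a block, edgeR called 22 genes (0.17%) and again 0 of the 9. The fitted log2 fold change was positive for 8 of the 9 enzymes, against 51.4% of all genes. Their median was 0.17, against 0.0052 over all genes, and in replicates 1, 2 and 3 it was 0.22, 0.19 and 0.19. The difference was positive in all 3 replicate numbers for 6 of the 9, which was so for 17.7% of all genes. The groups did not overlap, with copper higher, for 3 of the 9, against 5.45% of all genes.

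*PGD* encodes phosphogluconate dehydrogenase, which makes NADPH while turning phosphogluconate into ribulose phosphate. It lies on chromosome 1, from 10399064 to 10420511 (Entrez 5226, GRCh38). Its level was 208, 198 and 170 CPM in copper replicates 1, 2 and 3, and 151, 144 and 127 CPM in control replicates 1, 2 and 3. Every copper library was above every control library, and replicate 3 was the lowest of its group on both sides. The means were 192 ± 19.7 and 141 ± 12.04 CPM (SD, n = 3), a ratio of 1.37. On the log2 scale the fold change was 0.45 (SE 0.11, 95% interval 0.18 to 0.72), the largest of the 9, with an unadjusted p of 0.00487 and an adjusted p of 1.00 by edgeR. By p it ranked 61 of the 12944 genes. Its differences in replicates 1, 2 and 3 were close to each other, at 0.47, 0.46 and 0.42 on the log2 scale. With the replicate block the SE was 0.079 and edgeR's adjusted p 0.121.

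*PGD* was called in 6 of 24 alternative fits, and its log2 fold change stayed between 0.38 and 0.53 in all of them. DESeq2 with the replicate block, which called 0.448% of genes, gave an adjusted p of 0.00767. The blocked edgeR fit with no filter (1.07% of genes) gave 0.00388, and edgeR with a term for replicate 3 (0.27% of genes) gave 0.0410. With replicates 1 and 2 alone edgeR's adjusted p was 0.00437, in a fit that called 0.856% of genes. With the block and a correction for how transcript length and GC content shaped each library, the log2 fold change was 0.38 and the adjusted p by edgeR 0.0203, where 1.65% of genes were called.

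The other two enzymes of the oxidative branch differed less, and their differences were largest in replicate 3. *H6PD* encodes hexose phosphate dehydrogenase, which carries out the first steps of the same branch inside the endoplasmic reticulum. It is on chromosome 1, from 9239847 to 9271335 (Entrez 9563). It stood at 61.4, 60.3 and 73.1 CPM in copper and 58.6, 60.6 and 56.6 CPM in control, in replicate order. The groups overlapped, and copper replicate 3 alone was above the rest by more than the spread of the other five libraries. Its log2 fold change was 0.15 (SE 0.11, 95% interval -0.099 to 0.40), and it was 0.031 in replicates 1 and 2 alone.

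*PGLS* encodes phosphogluconolactonase, which opens the lactone made by the first step. It is on chromosome 19, from 17511649 to 17521288 (Entrez 25796). It stood at 54.7, 48.7 and 70.1 CPM in copper and 52.8, 48.2 and 51.1 CPM in control. Here too copper replicate 3 was the library that stood above the others. The log2 fold change was 0.19 (SE 0.14, 95% interval -0.15 to 0.52), against 0.030 in replicates 1 and 2 alone and 0.29 without copper replicate 2. A transcript on the opposite strand, *PGLS-DT*, overlaps 241 bases of the gene and had 83 to 187 counts per library. The use of strand in counting is not given in the sources used here, so reads in that stretch cannot be assigned with certainty.

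**Figure D2:**
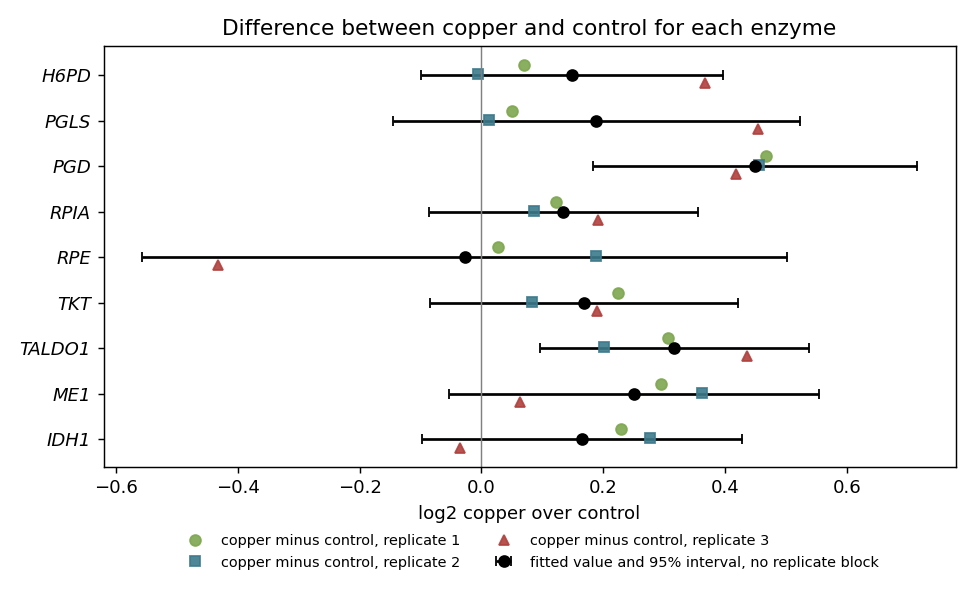
Log2 difference between copper and control for each enzyme (horizontal axis); black points and bars are the fitted value and its 95% interval without the replicate block, and coloured markers are the copper library minus the control library of the same replicate number. The intervals of PGD and TALDO1 lie above 0, and the replicate 3 marker is the highest of the 3 for H6PD, PGLS, RPIA and TALDO1, the lowest for PGD, RPE, ME1 and IDH1, and between the others for TKT.

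In the non-oxidative branch, *TALDO1* differed most. It encodes transaldolase, which moves a dihydroxyacetone unit between sugar phosphates, and lies on chromosome 11, from 747464 to 765012 (Entrez 6888). Its level was 285, 255 and 298 CPM in copper replicates 1, 2 and 3, and 231, 222 and 220 CPM in control. All copper libraries were above all control libraries. The control libraries lay close together, with means of 279 ± 22.2 CPM in copper and 224 ± 5.91 CPM in control (SD, n = 3). This gave a log2 fold change of 0.32 (SE 0.095, 95% interval 0.096 to 0.54), with an unadjusted p of 0.0111 and an adjusted p of 1.00 by edgeR. With the block the adjusted p was 0.352. The differences in replicates 1, 2 and 3 were 0.31, 0.20 and 0.44.

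*TKT* encodes transketolase, the thiamine-dependent partner of transaldolase, on chromosome 3 from 53225636 to 53256114 (Entrez 7086). It stood at 778, 684 and 827 CPM in copper and 667, 645 and 725 CPM in control. Copper replicate 2 lay within the control range, and replicate 3 was the highest of its group on both sides. Within each replicate number copper was higher, by 0.22, 0.08 and 0.19. Over the groups the log2 fold change was 0.17 (SE 0.11, 95% interval -0.085 to 0.42), and it was 0.11 without copper replicate 3. Its relatives *TKTL1* and *TKTL2* had at most 2 counts in any library.

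*RPIA* encodes ribose phosphate isomerase, which makes the ribose phosphate used for nucleotides. It is on chromosome 2, from 88691673 to 88750929 (Entrez 22934). Its level was 31.4, 31.0 and 34.6 CPM in copper and 28.8, 29.2 and 30.3 CPM in control. The groups did not overlap, but the gap between the lowest copper and the highest control library was smaller than the SD of either group. The log2 fold change was 0.13 (SE 0.095, 95% interval -0.087 to 0.36), with an unadjusted p of 0.195. Without copper replicate 3 it was 0.083.

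*RPE* encodes the epimerase that sends ribulose phosphate toward transketolase, and it was the only one of the 9 with a negative fitted difference. It lies on chromosome 2, from 210002565 to 210022260 (Entrez 6120). Its level was 86.2, 102 and 53.0 CPM in copper and 84.6, 89.7 and 71.5 CPM in control. Replicate 3 was the lowest of each group, and copper replicate 3 was the lowest of all 6 libraries. Fitted over all 6, the log2 fold change was -0.03 (SE 0.23, 95% interval -0.56 to 0.50), the widest interval of the 9. Without copper replicate 3 its sign changed, to 0.20 (adjusted p 0.537 by edgeR). *KANSL1L* on the opposite strand overlaps 840 bases of *RPE* and had 375 to 891 counts per library over its whole length. As for *PGLS*, reads in the shared stretch cannot be assigned with certainty. The near copy *RPEL1* had 2 to 4 counts per library.

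The NADPH-making enzymes outside the pathway were higher in copper in replicates 1 and 2 and close to control in replicate 3. *ME1* encodes the cytosolic malic enzyme, which turns malate into pyruvate, on chromosome 6 from 83210402 to 83431051 (Entrez 4199). It stood at 103, 108 and 79.9 CPM in copper and 83.8, 84.0 and 76.4 CPM in control. Copper replicates 1 and 2 were above all control libraries, while copper replicate 3 lay within the control range. With all 6 libraries the log2 fold change was 0.25 (SE 0.13, 95% interval -0.052 to 0.55), with an unadjusted p of 0.0919. Without copper replicate 2 it was 0.16, and in replicates 1 and 2 alone it was 0.33 with an adjusted p of 0.0306 by edgeR. The blocked fit with the length and GC correction, which uses all 6 libraries, also called it (0.26, adjusted p 0.0374).

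*IDH1* encodes the isocitrate dehydrogenase of cytosol and peroxisomes, on chromosome 2 from 208236227 to 208254303 (Entrez 3417). Its level was 108, 110 and 87.0 CPM in copper and 92.2, 90.9 and 89.1 CPM in control. Copper replicate 3 was the lowest of all 6 libraries, and the other two copper libraries were the highest. The log2 fold change was 0.17 (SE 0.11, 95% interval -0.097 to 0.43), and 0.25 in replicates 1 and 2 alone, with an adjusted p of 0.0774 by edgeR. It was 0.10 without copper replicate 2 and 0.27 without copper replicate 3.

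The 9 enzymes thus showed different patterns over the replicate numbers. *PGD*, *TALDO1*, *TKT* and *RPIA* were higher in copper in all 3. *PGLS* was also positive in all 3, but at 0.05 and 0.01 in replicates 1 and 2 and 0.46 in replicate 3, and *H6PD* differed by 0.07, -0.0059 and 0.37. *ME1* went the other way, at 0.30, 0.36 and 0.06, as did *IDH1*, at 0.23, 0.28 and -0.04, and *RPE*, at 0.03, 0.19 and -0.43. Each replicate number has 1 library per group, so these differences between numbers were not tested. With replicate 3 of both groups left out of the blocked fit, edgeR called *PGD* (adjusted p 4.95e-07), *ME1* (0.000213), *TALDO1* (0.000603), *IDH1* (0.00206) and *TKT* (0.0260). That fit called 7.03% of all genes, so the count of 5 is read against a high background. With the block and 2 libraries per group, each gene's own spread is barely measured. Its p-values therefore rest largely on a spread shared over all genes, as in each blocked fit without 1 replicate number.

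**Figure D3:**
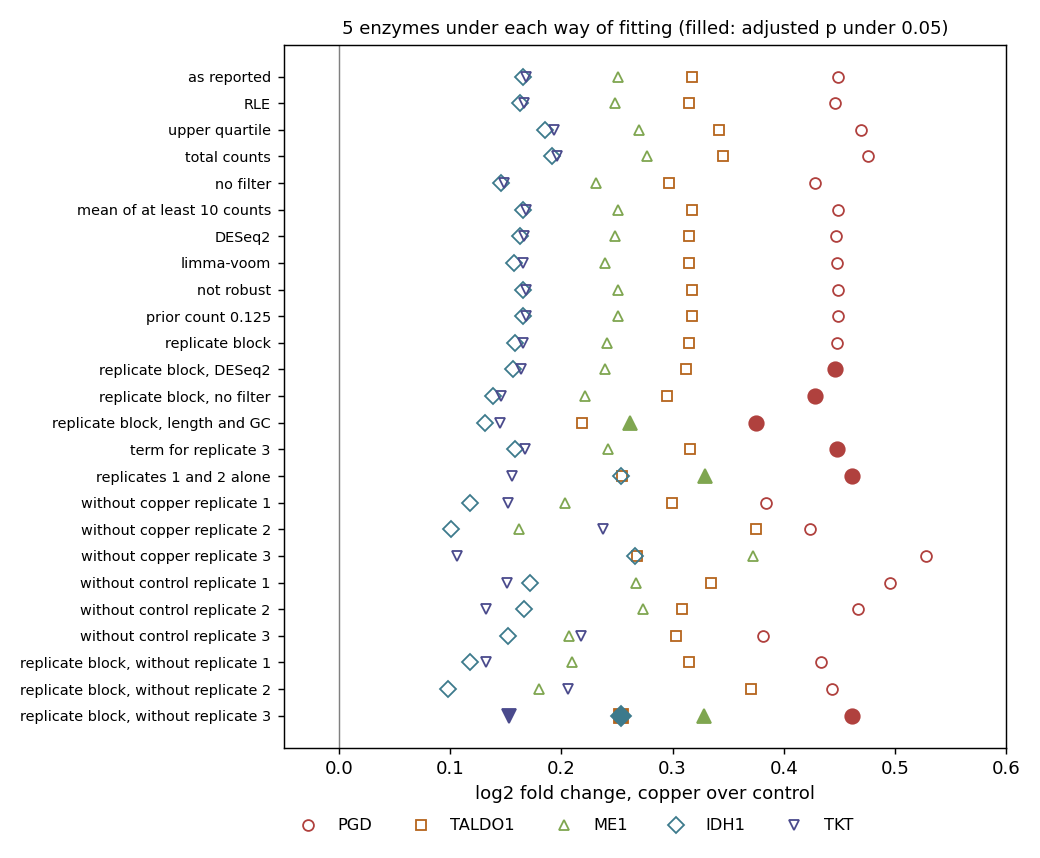
Log2 fold change (horizontal axis) of the 5 enzymes that at least 1 alternative called, under each way of fitting (vertical axis); filled markers had an adjusted p under 0.05. All values are above 0, PGD lies furthest right in every fit, and filled markers appear only in fits with the replicate block, a term for replicate 3 or replicates 1 and 2 alone.

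Levels can be set against each other between genes only per length, here as CPM per kilobase of the longest GENCODE 29 transcript, averaged over the 6 libraries. *TKT* was highest at 240 ± 23.3 and *TALDO1* next at 187 ± 24.9 (SD, n = 6), and their libraries overlapped. *PGD* followed at 88.3 ± 16.8, apart from *TALDO1* but overlapping *PGLS* at 52.8 ± 7.92. *IDH1* at 39.4 ± 4.17 lay apart from both its neighbours. *ME1* at 26.5 ± 3.86 overlapped *RPE* at 25.7 ± 5.35, which in turn overlapped *RPIA* at 16.7 ± 1.12. *H6PD* was lowest at 6.75 ± 0.63, with a longest transcript of 9146 bases that lowers this value if shorter forms are used. The carbon-shuffling enzymes of the non-oxidative branch were thus the most abundant messages, and the isomerase and epimerase of the same branch were among the least.

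**Figure D4:**
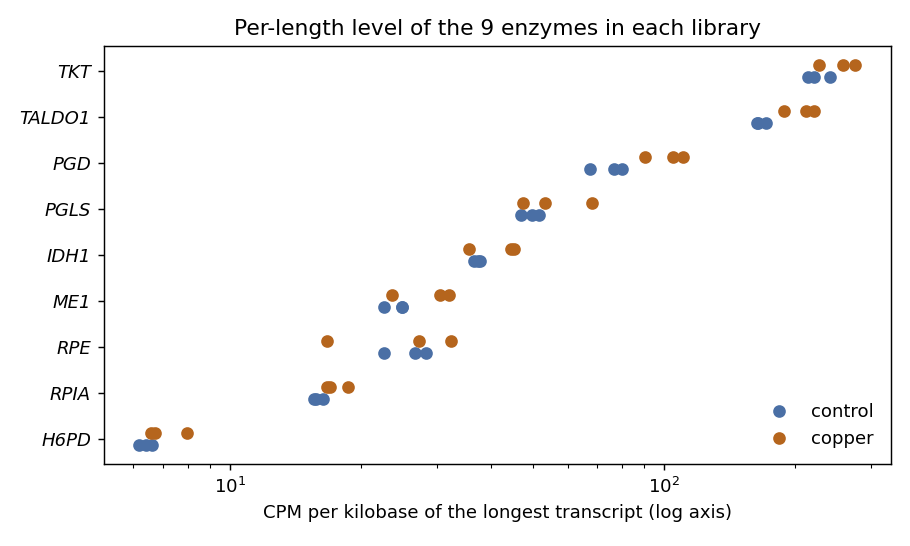
CPM per kilobase of the longest transcript (horizontal log axis) of the 9 enzymes in each of the 3 control and 3 copper libraries. The order runs from TKT at a mean of 240 to H6PD at 6.75, and the points of RPE overlap those of ME1 above and RPIA below.

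Among enzymes next to the pathway, edgeR made no call without or with the block. Of 15 such genes (hexokinases, ribokinase, ribose phosphate synthetases, *TKT* relatives and others), 12 were tested, and 6 had a positive and 6 a negative log2 fold change. Their median was 0.01. The smallest p belonged to *HK2*, a hexokinase that commits glucose to phosphate, at 135 ± 22.1 CPM in copper and 173 ± 26.9 CPM in control (SD, n = 3). The fitted difference was -0.35 on the log2 scale (SE 0.16), and edgeR's adjusted p was 1.00. *HK2* was called lower in 3 alternatives, the block with no filter (0.0240), the block with the length and GC correction (0.0403) and the block without replicate 3 (0.00277).

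Other sources of NADPH and enzymes related to them, mostly mitochondrial, were listed with the NAD kinases, and 11 of 12 were tested. They also had 0 calls by edgeR without or with the block, with 3 positive and 8 negative values (median -0.02). *MTHFD2*, a mitochondrial folate enzyme, was the one with lower values in every copper library (5.35% of all genes). It stood at 312 ± 12.3 against 360 ± 13.9 CPM, a log2 fold change of -0.21 (SE 0.088, adjusted p 1.00 by edgeR), and the blocked fit without replicate 3 called it lower (0.0122). *MTHFD2L*, its relative, was at 13.05 ± 0.942 in copper and 10.8 ± 1.00 CPM in control, a log2 fold change of 0.27. *ME3*, a mitochondrial malic enzyme, had 20 to 36 counts per copper library and 8 to 15 per control library. The fitted difference was 1.21 on the log2 scale (SE 0.33; edgeR's adjusted p 0.984). It was called by the block with no filter (0.0118) and by the block without replicate 2 (0.0116).

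Among enzymes that spend NADPH, 21 of 23 were tested, and 16 had a positive and 5 a negative log2 fold change (median 0.13). Over all genes 51.4% had a positive value. Unblocked edgeR called 0 of the 21, and 3 rose with the block, in a fit that called 0.17% of all genes. DESeq2 without the block called those 3, *AKR1C3* (8.23e-18), *NQO1* (1.57e-05) and *AKR1C1* (0.00195), and also *AKR1B10* (5.21e-05). *AKR1C3*, a ketosteroid reductase, stood at 27.2 ± 3.30 CPM in copper and 6.74 ± 1.63 CPM in control (adjusted p 0.0843 by edgeR without and 0.000869 with the block). With no filter on low counts, unblocked edgeR called it as well (0.000252). *NQO1*, a quinone reductase, stood at 344 ± 32.1 and 215 ± 13.8 CPM. They differed by 0.68 on the log2 scale (SE 0.11), and the adjusted p was 0.241 without and 0.0232 with the block. *AKR1C1* differed by 1.71 on the log2 scale (SE 0.37), at adjusted p-values of 0.804 and 0.00548, though it shares long stretches with *AKR1C3*. *AKR1B10*, at 21.8 ± 7.47 and 7.54 ± 1.54 CPM, missed the threshold by edgeR without and with the block (0.462 and 0.0533). It was called by blocked DESeq2 (1.15e-08), and by edgeR with a term for replicate 3 (0.0254) and without copper replicate 3 (0.0353).

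NRF2 itself, its regulators and a set of its reference targets numbered 14, of which 13 were tested. Of these, 11 had a positive value (51.4% of all genes), with a median of 0.21. By edgeR 1 rose with the block (0.17% of all genes) and 0 without. That gene was *HMOX1*, heme oxygenase, at a log2 fold change of 1.09 (SE 0.17) and edgeR adjusted p-values of 0.241 without and 0.00764 with the block. Without the block it was called by DESeq2 (9.71e-06) and by edgeR with no filter (0.0137). *FTH1*, the ferritin heavy chain (0.31), and *OSGIN1* (0.53) were 2 of the 4 with copper higher and no overlap between groups, against 5.45% of all genes. Unblocked edgeR gave both an adjusted p of 1.00. *GCLM*, a subunit of the glutathione-making ligase, had differences of 0.69, 0.56 and 0.0023 in replicates 1, 2 and 3, near 0 in replicate 3 as for *ME1*. *SRXN1* stood near the limit of counting, at 1.30 ± 0.527 and 1.16 ± 0.464 CPM. The metallothioneins, which bind copper and zinc, gave 3 blocked calls by edgeR of 4 genes tested, against 0.17% of all genes. DESeq2 without the block called the same 3, *MT2A* (1.80e-13), *MT1X* (1.32e-12) and *MT1E* (0.000142). *MT2A* stood at 719 ± 85.9 and 343 ± 12.8 CPM (blocked adjusted p 0.00516), *MT1X* had a log2 fold change of 2.02 (0.00236) and *MT1E* one of 1.23 (0.00995), in a family of near-identical genes. The log2 fold change of *PGD*, 0.45, was thus smaller than each of these called values.

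The genes whose pattern over the 6 libraries was most like that of *PGD* were sought among 10282 genes whose mean was 5 CPM or more. Likeness was the root mean square difference of log2 CPM, each gene centred on its own mean, and its median over those genes was 0.29. The nearest 3 were *CIART* (0.051), *HGD* (0.055) and *SQSTM1* (0.057). *SQSTM1*, which encodes the autophagy receptor p62, had a log2 fold change of 0.36, *HGD* one of 0.46 and *CIART* one of 0.46, and edgeR's adjusted p was 1.00 for all 3. Within the 9, *ME1* was nearest to *PGD* at 0.13, a value that 0.525% of the compared genes undercut, and *TALDO1* and *IDH1* followed at 0.16 each. *RPE* was the farthest at 0.34.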

How the data were processed

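Raw gene counts of 6 RNA-seq libraries from directional NEBNext kits were deposited by the authors in 1 table with Entrez numbers, symbols and coordinates. The submitters' processing notes name STAR, FastQC, edgeR and GRCh38. The counting program, its use of strand and its handling of reads that match several genes are not given in the sources used here. Table starts count from 0, so 1 was added. The 5 rows that carry no symbol, 0.000814% of counts, were dropped.

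The main analysis used edgeR 4.0.16 under R 4.3.3: filterByExpr (minimum count 10, total 15), TMM scaling, a robust quasi-likelihood fit of group, and Benjamini-Hochberg adjustment over all 12944 genes with a threshold of 0.05. A prior count of 2 entered the log2 fold changes, and each SE was the unshrunk value over the root of F. The members and the gene lists were chosen with earlier results of these data known. All 9 members are named. From each other list the rule named blocked or unblocked calls, the smallest p, up to 3 of the largest changes without overlap at 5 CPM or more, and 6 reference genes.

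Replicate numbers 1 to 3 come from the titles, which name no shared day or batch. Across genes, deviations of same-numbered libraries from their group means correlated at 0.46, 0.40 and 0.65, all above the 0.1 taken as pairing. Blocked values are therefore given where they change a call. Replicate 3 stood apart in both groups, which alone raises all 3 correlations, and differently numbered libraries were not compared. The correlations thus cannot show that the copper and control libraries numbered 1, or those numbered 2, belong together. Within-group chi-square values per degree of freedom were at least 5.40, so each library counted as 1 replicate.

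Alternatives were other scalings, filters and priors, DESeq2 1.42.0, limma-voom (limma 3.58.1), the block and its variants, a term for replicate 3, replicates 1 and 2 alone, and each library left out. The length and GC correction used splines of 4 degrees of freedom on the longest GENCODE 29 transcript, found for 99.2% of tested genes. Scripts were tested on simulated data. RefSeq promoters were matched by symbol for all 9 genes.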

Additional observations from a re-analysis of the deposited data

How the results depend on the processing

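The count of called genes was 0 as reported, 22 with the replicate block, 27 by DESeq2, 12 when no filter was used, 35 with replicate 3 as a term and 111 from replicates 1 and 2 by themselves. With the block it was 58 by DESeq2, 243 with no filter and 212 with the length and GC correction. Leaving out 1 library gave 0 to 15 genes, 15 only without copper replicate 3. The blocked fits without 1 replicate number gave 74, 77 and 912 genes, with 912 without replicate 3, and the cause of the larger counts was not tested. Of the 9 enzymes, 1 was called by blocked DESeq2, by the block with no filter and with a term for replicate 3, and 2 with the blocked length and GC correction and from replicates 1 and 2 by themselves. Leaving out 1 library called 0 of them in each fit. Blocked fits without 1 replicate number called 0 to 5, with 5 without replicate 3. The median log2 fold change of the 9 was 0.193 with upper-quartile and 0.196 with total-count scaling, where the median over all genes was 0.028 and 0.032. It was 0.146 with the block and no filter and 0.145 with the block and length and GC correction. Fits that left out 1 library gave 0.167 to 0.200, highest without copper replicate 3, and 0.194 without copper replicate 2 and without control replicate 3. Blocked fits without 1 replicate number gave 0.153 to 0.206. *RPE* ranged from -0.240 (without copper replicate 2) to 0.200 in the fits that left out 1 library, and it reversed to 0.113 in replicates 1 and 2 alone, 0.200 without copper replicate 3, 0.0423 without control replicate 2 and 0.108 with the block without replicate 3. *SRXN1* ranged there from -0.103 to 0.429, and it reversed to -0.0848 without copper replicate 2, -0.103 without control replicate 3 and -0.0348 with the block without replicate 2. The other 8 enzymes kept a positive sign in all 24 alternatives. The block by itself changed no call among the 9. The cause of these reversals was not tested. With 3 libraries a group, the 95% interval of the difference included 0 for 7 of the 9.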
